A study of Mus musculus with 2 samples.

Results

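Type I interferon-stimulated genes were followed as 1 set in single cells from the tumour region of mouse liver. The set has 35 genes, matched by symbol, and 34 of them were found among the 31053 features of the count tables. Mx2, an antiviral GTPase gene, was not found under its symbol and was not analysed here. Both libraries came from C57BL/6 mice aged 17 months that had been kept on the diet named CD-HFD for 15 months, and each is a suspension of the hepatocellular carcinoma (HCC) region. One is labelled control, with no treatment of the control mice given in the sources used here. The other is labelled FABP5 inhibitor, an agent against the fatty acid carrier FABP5 that was given from month 13. The tissue was digested with collagenase and passed through an Annexin V kit meant to enrich live cells whose sequenced fraction is not stated. Each library was made with a 10x Genomics 3′ kit, which counts captured mRNA by unique molecular identifiers (UMIs). There was 1 library per group and the number of mice behind each is not given in the sources used here, so no difference below could be tested and every interval covers counting error only.

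Type I interferons, the many IFN-α proteins, IFN-β and a few relatives, are secreted when sensors of foreign or misplaced nucleic acid are triggered, and plasmacytoid dendritic cells are a well-known source. They bind a receptor built from IFNAR1 and IFNAR2, whose kinases JAK1 and TYK2 trigger the assembly of a complex named ISGF3, which holds STAT2 and IRF9 and binds the interferon-stimulated response element (ISRE) in front of responsive genes. The products block translation of viral RNA, degrade it, sense nucleic acid or amplify the response. In tumours the same programme is known from T cells, macrophages, neutrophils and dendritic cells. A mean over a cell type hides whether few cells run the programme strongly or many run it weakly. The comparison here therefore gives the share of responding cells and the level in them side by side.

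The sequences in front of the genes show how many carry this element. A stretch of 250 bases before to 50 bases after the gene start was available from RefSeq (GRCm38.p6) for 26 of the 34 members, some of which have more than 1 such window. The ISRE was searched as the letters GAAANNGAAA on either strand, where overlapping matches count separately. It was present in at least 1 window of 17 of these 26 genes (65.4%) and of 1079 of 27025 genes of the whole table (3.99%). Counted by window, it was in 19 of 31 (61.3%) and in 1131 of 32851 (3.44%). No match to the ISRE letters was found for Ifit2, Cmpk2, Oasl1, Oasl2, Irf7, Ifi44, Isg20, Herc6 and Xaf1, which says only that these letters are not in those windows. No window was at hand for Usp18, Oas2, Mx1, Dhx58, Zbp1, Ifi27l2a, Rtp4 and Parp14.

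The stretches below belong to 4 of the genes that were used to call responding cells, with a near-identical copy of 1 of them, and to a family of nucleic acid sensors whose copies resemble each other. They are written 5′ to 3′ on the strand of the gene, with the ISRE match in capitals. Isg15, which encodes a ubiquitin-like modifier, has 3 overlapping matches in chr4:156200860-156200911, on the minus strand. Ifit1 and Ifit3, whose products hold back translation of foreign RNA, have their stretches in chr19:34640770-34640828 and chr19:34583358-34583431, both on the plus strand, and the Ifit3b stretch lies in chr19:34607754-34607827, also on the plus strand. Rsad2 encodes viperin, which makes a chain-terminating nucleotide, and its stretch is in chr12:26456548-26456587 on the minus strand. Ifi206, Ifi208 and Ifi214 encode sensors of the PYHIN family, with stretches in chr1:173491334-173491373 (minus strand), chr1:173673592-173673631 (plus strand) and chr1:173536012-173536051 (minus strand).
Isg15: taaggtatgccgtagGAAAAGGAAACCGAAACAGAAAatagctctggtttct
Ifit1: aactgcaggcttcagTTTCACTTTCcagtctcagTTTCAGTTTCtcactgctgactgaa
Ifit3: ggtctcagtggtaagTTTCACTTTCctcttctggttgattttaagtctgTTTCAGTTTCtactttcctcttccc
Ifit3b: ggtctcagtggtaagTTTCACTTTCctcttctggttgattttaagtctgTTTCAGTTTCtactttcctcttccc
Rsad2: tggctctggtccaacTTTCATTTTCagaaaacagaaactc
Ifi206: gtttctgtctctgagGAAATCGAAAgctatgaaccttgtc
Ifi208: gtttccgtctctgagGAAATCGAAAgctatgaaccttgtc
Ifi214: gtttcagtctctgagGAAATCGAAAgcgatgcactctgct

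The Ifit3 and Ifit3b stretches have 0 differences over 74 bases. The Ifi206 stretch has 1 difference from that of Ifi208 and 7 from that of Ifi214. These genes are paralogs, and how reads that fit more than 1 of them were counted is not given in the sources used here, so the values of Ifit3, Ifit3b and the PYHIN genes are uncertain as single genes. On GRCm38 the 5 Ifit members lie together on chromosome 19, from Ifit2 (chr19:34550694-34576419) to Ifit1 (chr19:34640871-34650009), while Isg15 lies on chromosome 4 (chr4:156199424-156200818).

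After filters on detected genes, UMIs, mitochondrial share and doublets, 6461 control cells and 8753 inhibitor cells remained, with medians of 3924 and 6249 UMIs per cell. The mitochondrial limit removed 2204 control and 885 inhibitor barcodes. The libraries share 29 barcodes, 18 of them among kept cells. Joint clustering, with interferon-induced genes left out of the clustered genes, gave 34 clusters. Their names rest on marker genes alone, so T cell stands for T cell-like, neutrophil for neutrophil-like and so on throughout. In all, 10 classes had 100 or more cells on both sides and were compared, and 5 smaller ones are given by value. Of the 10, cluster 7 keeps a number, because its 10 leading genes held 1 natural killer cell marker, Txk, and none of the T cell list. The first of them were Dapl1, Lef1, Gzmm, Nsg2, Satb1 and Tcf7, of which Lef1 and Tcf7 are known from resting T cells. Over all markers, cluster 7 scored highest as T cell, with 10 T cell markers at least 2-fold higher than in other cells.

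Over all kept cells the members held 144397 UMIs in the control library, or 4020 counts per 1000000 UMIs (CPM), and 174789 UMIs in the inhibitor library, or 3132 CPM. Within a class, CPM is the members' or gene's UMIs relative to all UMIs of that class. Ratios are inhibitor over control on the log2 scale, a member counts as measured at 20 or more UMIs over both libraries, and as lower or higher when the libraries differ by at least 1.5-fold. Of the compared classes, the summed level was furthest below the control in cluster 7 and T cells and about level in B cells and Kupffer cells. Ifi27l2a alone made up 43.4% and 53.8% of the member UMIs in B cells and 26.6% and 32.4% in Kupffer cells. Without Bst2, Ifi27l2a, Isg20 and Stat2, the B cell ratio was -0.20 (interval -0.38 to -0.03). The Kupffer ratio without them was -0.21 (-0.28 to -0.13). The median log2 ratio over all measured features was near 0 in most classes, between -0.08 and 0.09. It was -0.19 in neutrophils and 0.35 in hepatocytes, and member ratios there are to be read against these medians. Within neutrophils it was -0.02 in cluster 4 (561 control and 526 inhibitor cells) and -0.34 in cluster 14 (241 and 23 cells).

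**Figure D1:**
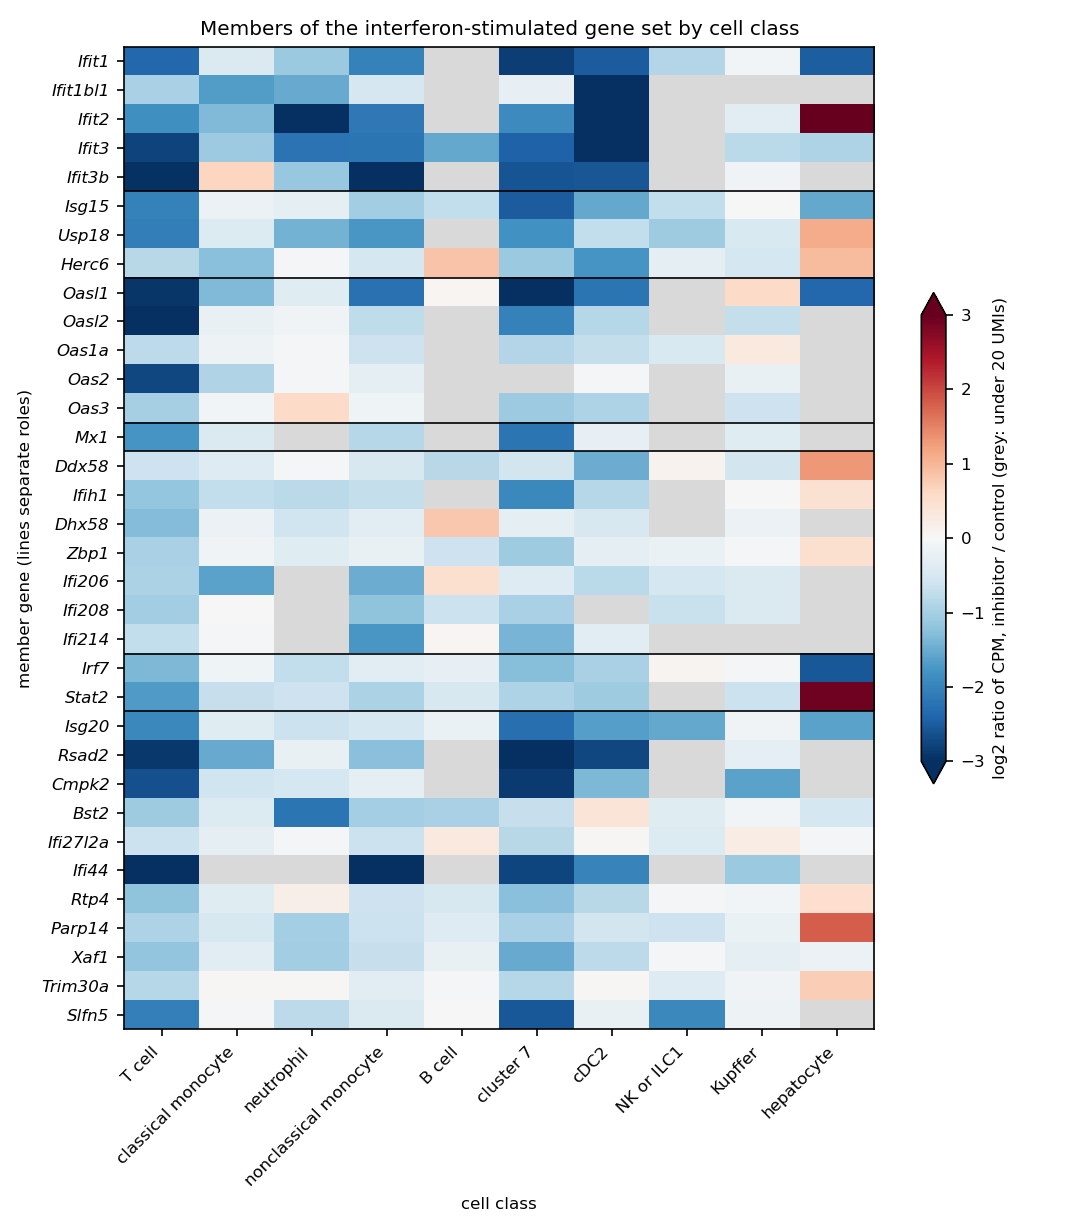
Log2 ratio of CPM, inhibitor over control library, for each member (rows, grouped by role) in each compared class (columns); grey marks members under 20 UMIs, and colours saturate at 3 in either direction. The T cell column is negative in all 34 rows, and the hepatocyte column holds both signs.

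T cells carried the programme at 4538 CPM in the control library and at 2016 CPM in the inhibitor library, 2.25-fold less (log2 -1.17, interval -1.20 to -1.14). All 34 members found were measured, and 34 were lower and 0 higher, with a median log2 ratio of -1.32. Over all measured features of T cells, 9.84% were lower and 4.03% higher by the same fold, with a median of -0.02. The members thus lay lower as a list than the features at large, by counts and by median, in these 2 libraries.

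The IFIT genes made up 5 of those members. Ifit1 stood at 187 and 36.6 CPM in control and inhibitor T cells (-2.35), and Ifit3 at 217 and 31.8 CPM (-2.77). Ifit2 went from 42.0 to 11.7 CPM (-1.84). Ifit3b, the copy of Ifit3, had 56.0 and 7.16 CPM (-2.97), and Ifit1bl1 had the smallest ratio of the family, at 52.7 and 26.9 CPM (-0.97).

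Isg15 and the genes of its conjugation were lower as well. Isg15 had 441 CPM in control T cells and 109 CPM in inhibitor T cells (-2.02). Usp18, the protease that removes ISG15 from proteins and also restrains the receptor, had 71.3 and 16.8 CPM (-2.08), while Herc6, the ligase that attaches ISG15 in mice, was at -0.84. The 2′-5′-oligoadenylate synthetase family activates an RNA-degrading enzyme, and some of its members act by other routes. Among its genes the ratios ran from -0.78 for Oas1a to -3.18 for Oasl2 (36.3 and 3.99 CPM). The antiviral GTPase Mx1 was at 49.5 and 14.5 CPM (-1.77).

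The 7 nucleic acid sensors lay closer to 0 in T cells than 4 of the 5 IFIT genes, all but Ifit1bl1. Ddx58, which encodes RIG-I, was at 65.8 and 42.8 CPM (-0.62), Zbp1, a sensor of left-handed nucleic acid, at 172 and 87.7 CPM (-0.97), and Ifi214 at 62.0 and 37.2 CPM (-0.74). The other 4 sensors, Ifih1, Dhx58, Ifi206 and Ifi208, lay between -0.95 and -1.29. Of the transcription factors, Irf7, which amplifies interferon production, had 159 and 62.3 CPM (-1.35) and Stat2 had 34.2 and 10.6 CPM (-1.69).

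Among the remaining effectors the ratios were widest. Ifi44 was lowest of all members, at 25.3 CPM in control and 1.52 CPM in inhibitor T cells (-4.06). Rsad2 had 61.4 and 8.26 CPM (-2.89), Cmpk2, a mitochondrial nucleotide kinase next to Rsad2, had 29.9 and 4.82 CPM (-2.63), and the nuclease gene Isg20 had 163 and 42.4 CPM (-1.94). Bst2, which encodes tetherin, was at 259 and 125 CPM (-1.06) and Trim30a at 147 and 81.0 CPM (-0.86). Rtp4, Parp14, Xaf1 and Slfn5 lay between -0.91 and -2.05. Ifi27l2a, the member with the most UMIs in T cells, had 1335 and 857 CPM (-0.64) and made up 29.4% and 42.5% of the member UMIs.

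Markers of other cell types moved with the library in T cells. The 12 macrophage markers summed to 430 CPM in control T cells and 78.9 CPM in inhibitor T cells, with all 12 detected in each, and the 10 hepatocyte markers to 1512 and 143 CPM. Free RNA was taken, here and below, at the largest share that 8 hepatocyte genes allow. Its profile was the sum of all barcodes of the library, cells included. The subtraction therefore cannot single out RNA of macrophages or hepatocytes. The share was 10.7% in control and 15.2% in inhibitor T cells, although hepatocyte markers were lower in the latter. With that share subtracted, the T cell ratio of the summed members was -1.35, further from 0 than the -1.17 without subtraction. In control T cells, macrophage markers averaged 0.0420% of UMIs in responding cells and 0.0450% in the others. Classical monocyte markers were higher in responders, at 0.117% against 0.0512% in the control and 0.0995% against 0.0658% in the inhibitor library. Any further part of these markers in the result was not tested.

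To separate share from level, each cell was thinned to 1000 UMIs and called responding when at least 2 UMIs from at least 2 of a few call genes remained. The call genes were Isg15, Ifit1, Ifit2, Ifit3 (with Ifit3b as the same gene), Rsad2, Usp18, Cmpk2 and Oasl1. The level was then measured on the other 25 members found, which the call did not use. As a check of the set, responding control T cells held a median of 6 of those 25 genes after thinning and the other control T cells a median of 1. In the inhibitor library the medians were 5 and 1.

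In the control library 355 of 2116 T cells responded (16.8%, exact interval 15.2 to 18.4), and in the inhibitor library 47 of 1995 (2.36%, 1.74 to 3.12). The control share was 7.12-fold higher (log2 -2.83 for inhibitor over control, interval -3.30 to -2.39). Median depth was alike, at 3463.5 and 3297.5 UMIs per cell, and without thinning the shares were 26.6% and 6.48%. B cells, the class with the lowest responding share in the control library, gave 0.68% (4 of 591) and 0 of 343, which allows up to 0.875% if 3 cells are taken as the limit of a count of 0 (1.07% as the exact bound), at median depths of 3144 and 2673.5 UMIs. The T cell share of the inhibitor library was above those values.

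The T cells were then counted by their call-gene UMIs. At 1000 UMIs, 1507 control and 1757 inhibitor T cells had none, and 215 and 175 had exactly 1. At 4 or more the numbers were 232 and 25, the widest gap among cells with at least 1. Of the responders, 66 control cells (18.6%) and 15 inhibitor cells (31.9%) sat at exactly 2 UMIs, the smallest number that could be called.

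**Figure D2:**
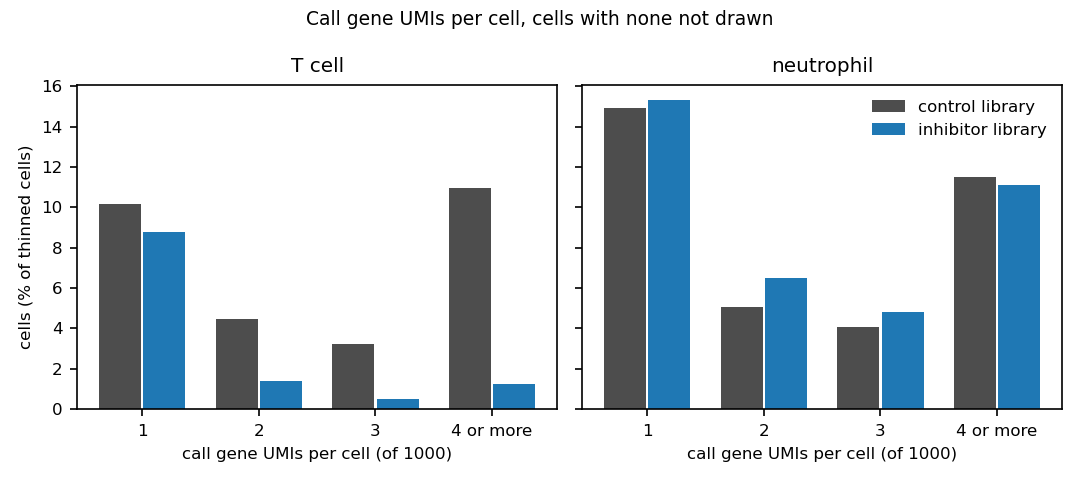
Percent of thinned cells (vertical axis) holding 1, 2, 3 or at least 4 call-gene UMIs out of 1000 (horizontal axis), in T cells and neutrophils, with grey bars for the control and blue bars for the inhibitor library; cells with none are not drawn. T cells with at least 4 numbered 232 of 2116 in the control and 25 of 1995 in the inhibitor library, while the neutrophil profiles of the libraries lie close to each other.

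Among responding T cells the measured members had 10044 CPM on the control and 9265 CPM on the inhibitor side (log2 -0.12, interval -0.20 to -0.04). Of the 25 members, 5 were lower and 0 higher, where 17.6% of all features were lower and 17.5% higher in the same cells. The count of lower members is near that share, while no member was higher. The median log2 ratio was -0.20 over the members and 0.04 over all features. Isg15 itself, a call gene, was at 2050 and 1914 CPM in responders (-0.10). Ifi27l2a was at 3146 and 3195 CPM (0.02), and Zbp1 (0.05), Bst2 (-0.08) and Irf7 (-0.14) also stayed within 1.5-fold.

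The 5 lower members, named after their values were seen, were Ifi44, Oasl2, Stat2, Oas2 and Ifi208. Ifi44 had 99.2 CPM in control and 31.4 CPM in inhibitor responders (-1.66, interval -3.31 to -0.40). Oasl2 had 171 and 69.0 CPM (-1.31), and Stat2 108 and 37.7 CPM (-1.51). Oas2 rested on 37 and 1 UMIs (-2.17), and Ifi208 was at -0.60.

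This near-equal level depended on how responders were called. It was -1.04 when a single call-gene UMI was enough, and -1.004 when cells were called on 12 other members (among them Irf7, Zbp1, Oasl2 and Rtp4) and the level measured in the rest, against 0.02 when at least 3 UMIs were asked for. The share was lower in the inhibitor library under those calls too, at -1.27, -1.44 and -3.09.

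T cells that were not called responders also carried less, with 2115 and 1619 CPM (-0.39). Of their 24 measured members 8 were lower and 0 higher, against 9.67% of all features lower and 4.02% higher. Ifi44 was at 70 and 6 UMIs in these cells (-3.64), Oasl2 at -1.90 and Isg20 at -1.31, while Ifi214 was at 0.12.

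Put together, the 25 measured members stood at 3425 and 1787 CPM in T cells. Control levels in responders and others, combined at the inhibitor share of responders, gave 2290 CPM. Inhibitor levels at the control share gave 2882 CPM. On this arithmetic, made only with the call defined above, the share moved the T cell sum more than the levels did. It was not repeated under the other calls, some of which gave a much lower level in inhibitor responders. Cells were called on UMI counts of the same programme, so a lower level can itself lower the share. The arithmetic therefore cannot fully set share and level apart. Responders held 48.5% of the measured-member UMIs of control T cells and 11.4% of those of inhibitor T cells.

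Every T cell cluster had a lower value in the inhibitor library, but by unequal amounts. In cluster 1, led by Gzmk and Cd8 genes (811 control and 1002 inhibitor cells), 25.8% and 2.87% of cells responded and the summed members stood at 5990 and 1746 CPM (-1.78), with 34 of 34 measured members lower against 9.05% of features. In cluster 3, with Cd4 and Foxp3 (592 and 545 cells), the shares were 16.9% and 2.61% and the ratio -0.85, with 31 of 33 members lower against 9.16%. Cluster 5, with the exhaustion genes Pdcd1 and Tox (508 and 463 cells), had shares of 5.21% and 1.10% and a ratio of -0.39, with 11 of 30 members lower against 9.65%.

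Cluster 12, led by Il17a and Trdc of γδ T cells, held 269 control and only 26 inhibitor cells. In it 32 of 267 control and 0 of 26 inhibitor cells responded, which by the same limit of 3 cells allows up to 11.5% (exact bound 13.2%). Its summed members had 3125 and 543 CPM, with 22 of 29 lower against 20.5% of features. With equal weight to each T cell cluster the shares were 15.0% and 1.64%, and with the inhibitor clusters weighted as in the control library the inhibitor share was 2.02%. The difference in share was thus as large with the clusters held equal.

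The pooled levels hide a spread over those clusters. Among T cells that were not responders, the ratio of the measured members was -0.91 for cluster 1 and -1.59 for cluster 12, but -0.15 for cluster 3 and -0.03 for cluster 5. Among responders it was -0.34 for cluster 1 (200 and 28 cells), -0.12 for cluster 3 (97 and 14 cells) and 0.55 for cluster 5 (26 and 5 cells), so the near-equal pooled level joins unequal values, the last from few cells.

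**Figure D3:**
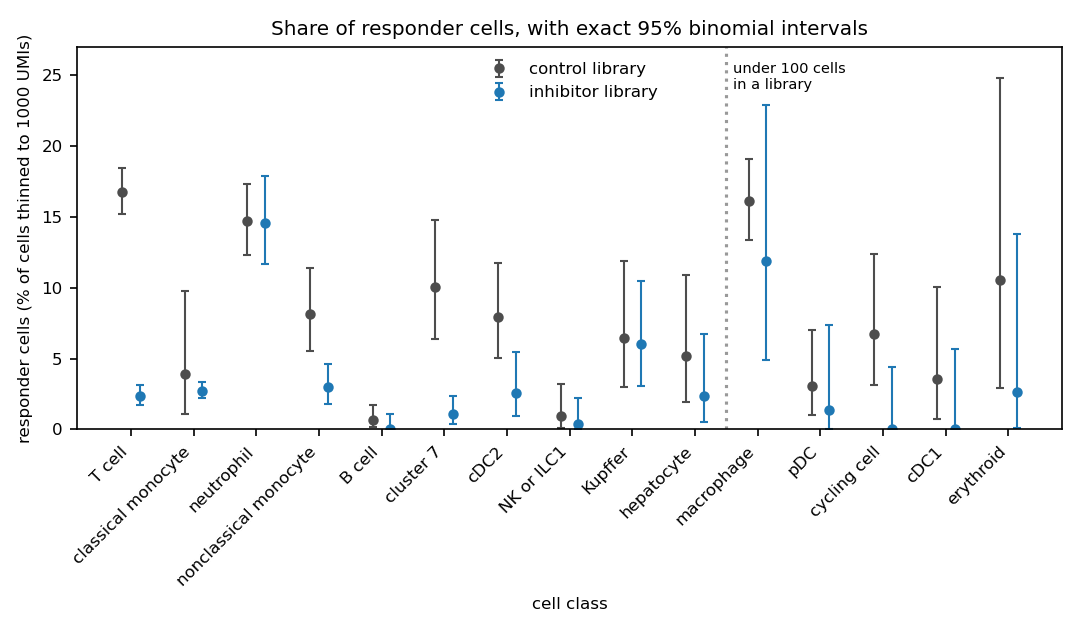
Percent of cells called responding after thinning to 1000 UMIs (vertical axis), by class and library, smaller classes to the right of the dotted line, with exact 95% intervals that cover counting error only. T cells stand at 16.8% and 2.36%, and neutrophils at 14.7% and 14.6%.

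Neutrophils gave the reverse arrangement, with an equal share and a lower level. In the control library 116 of 790 neutrophils responded (14.7%, 12.3 to 17.3) and in the inhibitor library 76 of 522 (14.6%, 11.6 to 17.9). The log2 ratio of the shares was -0.01 with an interval of -0.45 to 0.42. Without thinning the shares were 21.3% and 19.1%. The numbers of call-gene UMIs were similar too, with 91 of the control and 58 of the inhibitor cells at 4 or more and a median of 5 per responder in both libraries.

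Within those responders the 25 measured members had 10359 CPM on the control side and 6058 CPM on the inhibitor side (-0.77, interval -0.89 to -0.66). Of 18 members measured there, 12 were lower and 0 higher, with a median of -0.93, against 23.6% of all features lower and 15% higher. Bst2 had 298 and 31.2 CPM (-3.26), and Irf7 had 961 and 343 CPM (-1.49). Parp14, a mono-ADP-ribosyltransferase gene, was at -1.60, Zbp1 at -1.44, Isg20 at -1.39 and Slfn5 at -1.16. Ifi27l2a was at -0.66, Rtp4, which encodes a receptor chaperone, at -0.18, and Oas3 at 0.20.

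Call genes in the same responders, shown only as a description since they chose the cells, did not move together. Ifit2 had 263 and 15.6 CPM (60 and 2 UMIs) and Ifit3 891 and 187 CPM (-2.25). Isg15 had 3484 and 2386 CPM (-0.55) and Rsad2 2791 and 2082 CPM (-0.42). Isg15 and Rsad2 held the most UMIs of the call genes in responders of both libraries.

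Neutrophils not called responders did not carry less. The measured members had 2187 and 2443 CPM (0.16, interval 0.08 to 0.24). Of 17 members 3 were lower and 2 higher, against 24.6% and 5.73% of features. Bst2 was among the lower ones, at -1.52, and Oas3 among the higher ones, at 0.89.

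Over the whole class the members went from 5123 to 4222 CPM (-0.28, interval -0.33 to -0.22), with 15 of 29 lower and 0 higher against 25.8% and 5.32% of features. Ifit2 had 61 UMIs in the control and 2 in the inhibitor library (-4.12, interval -7.20 to -2.21). Ifit3 was at 135 and 29.4 CPM (-2.20), Bst2 at 74.5 and 16.3 CPM (-2.19) and Ifit1 at 133 and 61.0 CPM (-1.12). Members with many UMIs were within 1.5-fold, with Ifi27l2a at 1221 and 1192 CPM, Isg15 at 729 and 601 CPM, Rsad2 at 478 and 409 CPM and Rtp4 at 254 and 287 CPM. Oas3 was the highest, at 106 and 158 CPM (0.58).

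The size of the neutrophil values depended on scaling and on 1 cluster. With size factors taken from the median ratio of all features, the class ratio shrank to -0.09 and the responder ratio to -0.58. Cluster 14, with 241 control and 23 inhibitor cells, is mostly of the control library. Without it the class ratio was -0.15 and the responder ratio -0.57, and 9 of 28 members were lower against 11.1% of features. Median depth was 1939 and 1635 UMIs, and free RNA was put at no more than 20.4% and 29.9% of neutrophil UMIs. Macrophage markers summed to 1393 and 802 CPM, with Trem2 and Gpnmb at 0 in the inhibitor library, and hepatocyte markers to 2791 and 344 CPM. The part of these in the result was not tested beyond the free RNA subtraction, which gave -0.72 in responders.

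**Figure D4:**
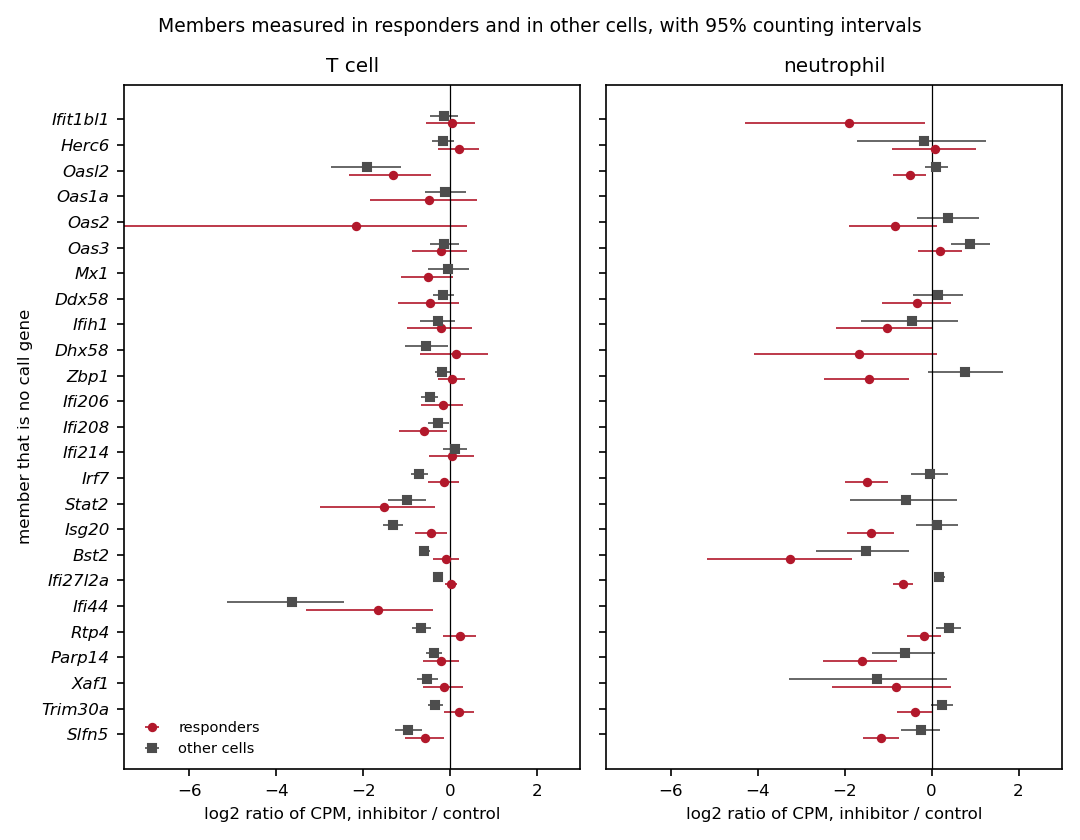
Log2 ratio of CPM, inhibitor over control library, of the measured members in responding cells and in the other cells, for T cells and neutrophils, with exact intervals for counting error that are cut at the axis limits. In T cell responders most points lie near 0, and in neutrophil responders 12 of 18 lie at least 1.5-fold below it.

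Nonclassical monocytes, patrolling cells of the vessel wall, went from 5864 to 3630 CPM (-0.69), with 22 of 34 members lower and 0 higher against 10.7% and 10.6% of features. Their share of responders was 8.13% (30 of 369) in the control and 2.99% (19 of 635) in the inhibitor library (-1.44, interval -2.35 to -0.57). Ifi44 was at -3.13, Ifit3b at -3.12 and Oasl1 at -2.24. Isg15 had 285 and 139 CPM (-1.04), Bst2 314 and 154 CPM (-1.03), and Ifi27l2a 3064 and 1966 CPM (-0.64). Cmpk2 (-0.26), Zbp1 (-0.23) and Oas3 (-0.13) were the highest.

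The values depend on the extent of this class. It joins cluster 9 (113 control and 436 inhibitor cells) with cluster 11 (257 and 202 cells), and within each the ratio was smaller, at -0.38 and -0.41. Responder shares were 3.57% and 1.39% in cluster 9 and 10.1% and 6.44% in cluster 11, with overlapping intervals in each. With the inhibitor clusters weighted as in the control library, the inhibitor share was 4.90%. Cluster 11 was named on 3 markers, the fewest allowed, with a score of 0.69 against 0.47 for classical monocyte. When each library was clustered on its own, the ratio of the summed members turned to 0.17, that of the share to 0.27, and 8 members were lower. No share of all features was kept for that setting. Macrophage markers summed to 6678 and 4599 CPM in the class. In the 30 and 19 responders, too few to compare, the measured members had 11272 and 8103 CPM.

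Classical monocytes had 4781 and 3917 CPM (-0.29), with 11 of 33 members lower and 1 higher against 19.8% and 10.1% of features. Only 102 control cells reached 1000 UMIs, 4 of which responded (3.92%), against 93 of 3417 inhibitor cells (2.72%). Ifit1bl1, Ifi206 and Rsad2 had the lowest ratios. With each library clustered on its own, the ratio was -0.94 and 28 members were lower, with no share of all features kept for that setting. The class joins cluster 0 (62 control and 1856 inhibitor cells), cluster 2 (15 and 1407) and cluster 18 (39 and 171). Within cluster 0 the ratio was -0.23, with 1 of 33 members lower and 4 higher, against 13.7% of features lower. In cluster 18 it was -0.09, with 5 of 13 lower and 2 higher, against 23.7% lower.

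Conventional dendritic cells of type 2 (cDC2), which present antigen to CD4 T cells, had 3590 and 2688 CPM (-0.42), with 23 of 33 members lower and 0 higher against 11.1% and 11.9% of features. The 3 lowest members were IFIT genes. Ifit2 was at 61.3 and 3.51 CPM (-4.13), Ifit1bl1 at -3.48 and Ifit3 at 124 and 13.2 CPM (-3.24), followed by Rsad2 at -2.72 and Isg15 at 281 and 97.8 CPM (-1.52). Bst2 stood at 441 and 574 CPM (0.38), and Ifi27l2a and Trim30a at 0.04 each. Responders were 22 of 277 (7.94%) and 6 of 236 (2.54%).

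The cDC2 sum rests on a few abundant members. Without Bst2, Ifi27l2a, Isg20 and Stat2, which many cells express without interferon, it was -0.98. With 2 times as many doublets removed it was 0.11, with 10 members lower and no share of all features kept for that setting. Macrophage markers summed to 1180 and 361 CPM and hepatocyte markers to 2316 and 155 CPM. With free RNA subtracted the ratio was -0.47, and any further part of these markers was not tested.

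Kupffer cells, the resident macrophages of the liver, had 3607 and 3434 CPM (-0.07). Of 32 members 6 were lower and 0 higher, which is close to the 19.4% and below the 11.8% of features that were. Their responder shares were 6.43% (9 of 140) and 6.01% (11 of 183), at median depths of 3942 and 13281 UMIs. Isg15 was at 123 and 122 CPM and Ifi27l2a at 0.21. Cmpk2 (-1.59), Ifi44 (-1.12) and Ifit3 (-0.82) were lowest, and Oasl1 was highest at 0.57.

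Cluster 7 had 2187 and 900 CPM (-1.28, interval -1.36 to -1.21), with 29 of 33 members lower and 0 higher against 7.1% and 9.4% of features. Responders were 22 of 219 (10.0%) and 6 of 548 (1.09%), a log2 ratio of -3.20. In these few responders the measured members had 6686 and 3746 CPM (-0.84, interval -1.12 to -0.56), unlike the T cell value of -0.12. Rsad2 had 33.8 and 2.71 CPM (-3.64), Oasl1 was at -3.03, Cmpk2 at -2.87 and Isg15 at 195 and 34.6 CPM (-2.49). Ifi206 (-0.38), Dhx58 (-0.28) and Ifit1bl1 (-0.25) were highest.

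This cluster also depends on which genes enter the clustering. With interferon-induced genes kept, its ratio was -0.27 and 5 members were lower, with no share of all features kept for that setting. Its macrophage markers summed to 244 and 62.9 CPM, with Ms4a7 at 0 in the control and Trem2 and Gpnmb at 0 in the inhibitor library, and its hepatocyte markers to 878 and 63.9 CPM.

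B cells and natural killer cells or type 1 innate lymphoid cells (NK or ILC1) had the lowest control levels of the leukocyte classes compared. B cells had 967 and 963 CPM (-0.01, interval -0.12 to 0.10), with 6 of 20 members lower and 2 higher against 9.74% and 5.94% of features. Ifit3, Bst2 and Ddx58 were lowest, and Herc6, Dhx58 and Ifi206 highest. NK or ILC1 cells had 843 and 633 CPM (-0.41), with 7 of 18 lower and 0 higher against 10.9% and 7.17%. Slfn5, Isg20 and Usp18 were lowest there, and 2 of 221 and 1 of 253 cells responded.

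Hepatocytes had 1095 and 925 CPM (-0.24), with 6 of 19 members lower and 7 higher against 13.2% and 39% of features. The members did not move as a set. Irf7 was at 112 and 19.2 CPM (-2.54), Ifit1 at -2.47, Oasl1 at -2.36 and Isg15 at 194 and 66.9 CPM (-1.54). Ifit2 was at 12.7 and 151 CPM (10 and 212 UMIs, 3.57), Stat2 at 2 and 27 UMIs (2.92) and Parp14 at 1.83. The hepatocyte clusters belong mostly to 1 library each, with cluster 20 holding 2 control and 146 inhibitor cells, cluster 23 80 and 3, and cluster 26 77 and 0, so cell state and library cannot be told apart. Responders were 6 of 116 and 3 of 128 (-1.14), a ratio that changed sign when the mitochondrial limit was dropped (1.03).

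The 5 smaller classes are given by value. Macrophages, with 670 control and 60 inhibitor cells, had the highest control responder share of the 15 classes after T cells, 107 of 665 (16.1%), against 7 of 59 (11.9%) in the inhibitor library. Their summed members had 6338 and 5189 CPM, with 18 of 34 lower against 14% of features. Plasmacytoid dendritic cells (pDC) had 6633 and 5827 CPM and 5 of 163 and 1 of 73 responders. Cycling cells had 2566 and 1671 CPM, with 9 of 134 and 0 of 82 responders, the latter allowing up to 3.66% (exact bound 4.40%). Conventional dendritic cells of type 1 (cDC1) had 1986 and 973 CPM, with 3 of 84 and 0 of 63, the latter allowing up to 4.76% (exact bound 5.69%). Of these 15 classes, erythroid cells alone had a higher sum in the inhibitor library, at 2304 and 3055 CPM (0.41), with 2 of 17 members lower and 9 higher against 7.03% and 56.5% of features, and a median of 0.77 over all features.

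**Figure D5:**
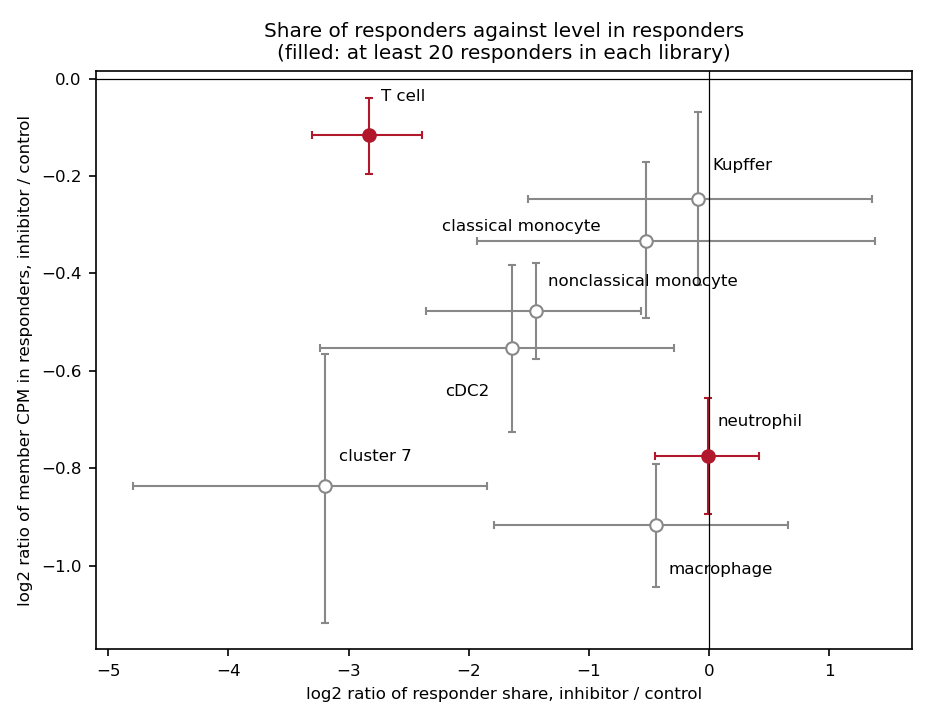
Log2 ratio (inhibitor over control) of the share of responding cells on the horizontal axis and of the level of the 25 measured members in responders on the vertical axis, by class, with exact intervals for counting error. T cells lie far to the left at -2.83 and -0.12, and neutrophils lie below the origin at -0.01 and -0.77; classes with under 20 responders in a library have open symbols.

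Seen by gene, some members were lower in nearly every compared class and others in few. Ifit3 was lower in 9 of the 9 classes where it was measured and Ifi44 in 5 of 5. Ifit1 was lower in 7 of 9 and Isg15 in 7 of 10. Ifi27l2a was lower in 3 of 10 and Trim30a in 2 of 10. Per class, from 7.1% (cluster 7) to 25.8% (neutrophils) of all features were lower. No count over classes was made for all features, so these counts have no background. The classes also share the same 2 libraries.

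The type I ligands were almost without UMIs. Of 20 ligand genes found, Ifna2 had 5 UMIs in 1 control pDC, Ifnk had 1 UMI in each library, and Ifnz had 2 in the control and 1 in the inhibitor library. Ifnb1 had 0 in kept cells. These counts say only that ligand mRNA was below what the depth shows. Ifng, which encodes the type II interferon and signals through a receptor of its own, was not lower. It had 120 and 205 CPM in T cells (0.77), 140 and 213 CPM in NK or ILC1 cells (0.61) and 32.3 and 60.5 CPM in cluster 7 (0.91).

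The type I receptor chains and their kinases did not follow the members in T cells. Ifnar1 was at 60.0 and 79.3 CPM (0.40), Ifnar2 at 46.7 and 41.9 CPM, Jak1 at 359 and 391 CPM and Tyk2 at 33.7 and 35.5 CPM. Irf9, which is part of ISGF3, was at 56.5 and 38.2 CPM (-0.57). Ifngr1, a chain of the IFN-γ receptor, was at 342 and 340 CPM, and Ifngr2, the other chain, was lower (-0.86).

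In neutrophils 2 of 11 such genes were lower, Tyk2 (-0.71) and Jak2 (-0.60), which is no more than the 25.8% of all features. Irf9 was at 84.5 and 82.7 CPM and did not pass 1.5-fold there.

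Other interferon-induced genes outside the set were lower in T cells in 33 of 71 measured cases and higher in 0, with a median of -0.49, against 9.84% and 4.03% of all T cell features. Gm4951 was lowest at -2.56, followed by the chemokine gene Cxcl10 at 231 and 60.9 CPM (-1.93) and Ifi204 (-1.66), and the highest were Ms4a4b (0.46) and Epsti1 (0.38) with Ifi207. In nonclassical monocytes 28 of 71 were lower and 0 higher, against 10.7% of features lower. In cDC2 21 of 69 were lower and 1 higher, against 11.1% lower, and in cluster 7 22 of 62 and 0, against 7.1% lower. In neutrophils 17 of 54 were lower and 3 higher, near the 25.8% and 5.32% of features. Of genes known mainly from the response to IFN-γ, 11 of 19 were lower and 0 higher in T cells, with a median of -0.93, against the same 9.84% and 4.03%, although Ifng was at 0.77 there. Serping1 (-3.07, 37 and 4 UMIs), Tgtp1 (-2.71, 36 and 5 UMIs) and Irgm2 (-1.62, 132 and 39 UMIs) were lowest, and Wars (0.34) was among the highest. Serping1 stood at 165 CPM in control hepatocytes, and any part of hepatocyte RNA in its T cell value was not tested.

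Sensors that are members were all lower in T cells, as given above, and upstream genes outside the set were counted apart. Of 14 measured sensors and adaptors that are not members, 0 were lower and 0 higher. Of 11 negative regulators, Trim30d was lower (-0.85) and Socs3, which restrains signalling through cytokine receptors, was higher at 42.0 and 86.2 CPM (1.04). Of all T cell features 9.84% were lower and 4.03% higher, and counts of 0 or 1 gene in lists this short cannot be set apart from those shares.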

How the data were processed

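Single-cell RNA was measured in 1 control and 1 inhibitor library. Per the file headers, the deposited matrices hold UMI counts from Cell Ranger 5.0.1, without normalization. The build mm9, R 3.0 and Seurat 3 are named in the submitters' processing notes. Of 31053 features, 30934 identifiers occur in GENCODE M21 (GRCm38), so the build behind the counts is unclear, and all positions and sequences printed are from GRCm38.

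Barcodes with at least 300 genes, at least 500 UMIs and at most 25% mitochondrial UMIs were kept. Doublets were scored against simulated ones, 2 per cell, and 0.8% per 1000 barcodes were removed (374 control and 717 inhibitor barcodes). Cells of both libraries were clustered jointly and without integration on 2000 variable genes, chosen after 134 interferon-induced ones had been left out (30 components, 20 neighbours, Leiden resolution 1), in Python 3.11.15 with numpy 2.4.6, scipy 1.17.1, pandas 2.3.3, scikit-learn 1.9.0, leidenalg 0.10.2 and igraph 0.11.9. Classes were named from markers of 20 cell types, of which at least 3 had to be 2-fold higher in a cluster. The scoring rule was settled after the first clusters had been seen. A cluster with more leading markers of another class than of its own stayed unnamed.

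UMIs were summed per library and class. Shares have Clopper-Pearson, levels Poisson and ratios conditional binomial exact 95% intervals, which cover counting error only. For ratios, 0 was replaced by 3 UMIs per class. Ratios of levels in responders were compared where each library held at least 20 of them. Members named per class are the call genes, the 6 with most UMIs and the 3 highest and 3 lowest ratios, with further members named to account for the whole set. The members and lists were chosen with earlier results of these data known. The procedure was run on simulated data. Simulated responders and other cells lay further apart in their call genes than T cells did here. That run therefore does not show how well the call works on these data. Alternatives, 59 of them planned, are in the closing section. Some results on the pathway are not reported here.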

Additional observations from a re-analysis of the deposited data

Results flagged for a closer look

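In erythroid cells, with 38 cells of sufficient depth in each library, the summed members had a log2 ratio of 0.41, opposite to T cells, while the median of all features there was 0.77. In hepatocytes Ifit2 had a ratio of 3.57, from 10 and 212 UMIs, opposite to its ratios of -1.84 in T cells and -4.12 in neutrophils. Neither difference between classes was tested, since each group is 1 library. The 5 UMIs of Ifnb1, the IFN-β gene, all lay in control barcodes that the filters removed. Endothelial cells were too few in the inhibitor library to enter any comparison, and 14 of 30 of them in the control library (46.7%) were called responders.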

How the results depend on the processing

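No paired analysis was possible because there is 1 library per group, and for the same reason no replicate could be left out. Alternatives were sorted by whether they fell inside the interval of the main value, or within 1.5-fold of it for counts of members. Across T cells, neutrophils, nonclassical monocytes and cDC2, leaving out counts of higher members, 162 of 218 did, 54 moved it and 2 reversed it. Among other results, those counts included, these numbers were 258, 92 and 3 of 353. A change of sign counted as reversed only where the main ratio was at least 1.5-fold. The sign was kept in 11 of 12 alternatives for the cDC2 module. It was kept in 18 of 20 for the T cell responder level and 12 of 17 for the neutrophil share. The cDC2 share (-1.64) ran from -2.86 to -0.39, all inside its interval of -3.24 to -0.30. The alternatives that leave out clusters 12 or 14, add cluster 7, leave out shared barcodes or leave the 4 broad members out of the responder level were chosen after seeing the data. cDC2 had no value at resolution 0.5 or with each library clustered on its own. Unless the construction shows it, the cause was not tested. Apart from neutrophils without cluster 14, counts of lower members under alternatives have no share of all features to be set against.

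The T cell share (-2.83) was negative in 18 of 18 alternatives, and it moved to -1.27 with calls from 1 UMI and -1.44 with other call genes. The T cell module (-1.17) was -1.34 with cluster 7, -1.23 without cluster 12, -1.08 at 600 or more genes per cell, -1.12 with libraries clustered alone, -1.35 with free RNA subtracted, -1.13 with no mitochondrial limit, -1.02 at resolution 2, -1.49 without Bst2, Ifi27l2a, Isg20 and Stat2, and -1.10 without Isg15. The number of lower members in T cells was 23 to 34. The T cell responder level (-0.12) was -0.23 with cluster 7, -1.04 from 1 UMI, 0.017 from 3 UMIs, -1.004 with other call genes and 0.026 when thinned to 500 UMIs.

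The neutrophil share ran from -0.25 to 0.19. The neutrophil responder level (-0.77) was negative in 19 of 19 alternatives, at -0.57 without cluster 14, -0.44 from 1 UMI, -0.95 at 600 genes, -0.58 with median-of-ratios size factors and -0.61 with no mitochondrial limit. The neutrophil module (-0.28) was -0.15 without cluster 14, -0.21 with 2 times as many doublets removed, -0.088 with median-of-ratios, -0.34 with no doublets removed and -0.15 with no mitochondrial limit, and 9 members (of 15) were lower without cluster 14 and 9 at 2-fold.

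The nonclassical monocyte module (-0.69) was -0.51 with 2 times as many doublets removed, -0.27 at 600 genes, 0.17 with libraries clustered alone, -0.27 with interferon genes kept, -0.33 at a mitochondrial limit of 10%, -0.31 with no doublets removed, -0.62 with no mitochondrial limit, -0.73 at resolution 0.5 and -0.58 at resolution 2. Its share (-1.44) was -0.46 from 1 UMI, 0.27 with libraries clustered alone and -0.49 with other call genes. Its lower members (22) were 12, 6, 8, 6, 11 and 8 under the first 6 of these module settings and 13 at 2-fold. The cDC2 module (-0.42) was 0.11 with 2 times as many doublets removed, -0.47 with free RNA subtracted, -0.35 with interferon genes kept, -0.51 with median-of-ratios, -0.48 with no doublets removed, -0.98 without the 4 broad members and -0.35 without Isg15, and its lower members (23) were 10 with more doublets removed and 14 at 2-fold. The hepatocyte share (-1.14) reversed to 0.23 from 1 UMI, 1.03 with no mitochondrial limit and 0.28 when thinned to 2000 UMIs.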

Other observations

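Genes known mainly from the response to IFN-γ were mostly higher in inhibitor hepatocytes. Of 15 measured there, 14 were higher in the inhibitor library and 1 lower, with a median log2 ratio of 1.90, where 39% of all hepatocyte features were higher and their median was 0.35. The type I set had 7 of 19 members higher and 6 lower there, with a median of 0.45. In T cells the same list had 11 of 19 lower and 0 higher. In hepatocytes 6 of 10 receptor and signalling genes, 6 of 8 sensors and adaptors and 5 of 6 negative regulators were also higher. The hepatocyte clusters are split between the libraries, so cell state and library cannot be told apart.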
